A study of Mus musculus with 15 samples.

Results

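A set of 7 genes of hepatic glucose handling were followed in the livers and lungs of mice fed a control diet (CS group) or a diet with 2% phytosterols (PS group). They are Slc2a2, Pklr, G6pc, Pck1, Fbp1, Gys2 and Pygl, chosen by gene symbol as 7 of the 54532 genes in the deposited tables. Each symbol matched 1 Ensembl identifier. All 7 passed the filter on low counts in the liver and 3 passed it in the lung. The animals were male wild type C57BL/6J mice, an inbred strain. Phytosterols are sterols of plants, similar to cholesterol in structure. Liver RNA came from 4 CS and 5 PS mice and lung RNA from 3 CS and 3 PS mice, all 6 of which also gave a liver, with 1 library per mouse and tissue. The labels gave an age of 28 weeks, and the feeding times in the methods add up to a greater age. Whether the mice were fasted and at which hour tissue was taken is not given in the sources used here.

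The liver takes up glucose after a meal and releases it between meals. Glucose crosses the hepatocyte membrane through GLUT2 and, once phosphorylated, can be stored as glycogen or burned through glycolysis, whose last step in the liver is the L-type pyruvate kinase. In the opposite direction, PEPCK, fructose 1,6-bisphosphatase and glucose 6-phosphatase build free glucose from lactate and amino acids. Glycogen phosphorylase splits phosphorylated glucose from glycogen. Insulin and glucose are known to raise the transcription of the glycolytic genes, and glucagon and fasting that of the genes for glucose release.

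In the livers of the PS group the mRNA of the glucose transporter and of the liver pyruvate kinase was higher and that of glucose 6-phosphatase was lower, where the threshold was an unadjusted p of 0.05 in the quasi-likelihood test of edgeR. Slc2a2 was 1.79-fold and Pklr 2.50-fold higher, and G6pc was 1.92-fold lower. The other 4 genes, Pck1, Fbp1, Gys2 and Pygl, did not pass that threshold. No gene of the 7 passed after Benjamini-Hochberg adjustment over the 13195 genes tested. Over all genes, 7.55% passed the unadjusted threshold, with 3.96% higher and 3.58% lower in the PS group. Only Gm7463, 0.00758% of the genes, passed an adjusted p of 0.05, and it was higher. Values below are in CPM, the read count of a gene relative to the TMM-scaled size of its library, and a log2 fold change is the PS group against the CS group. FPKM, which is also scaled by gene length, is used where genes are compared with each other. In whole tissue, fewer cells of a type and less RNA per cell cannot be told apart.

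The liver libraries held 14410117 to 17625179 counted reads and the lung libraries 17934930 to 19396057. One liver, CS replicate 2, stood apart. Its log2 values deviated from the median of the livers with an SD of 0.96, against 0.37 to 0.74 in the other 8. It held the lowest level of 5 of the 7 genes, so the results of these 7 are also given without it. Hepatocyte markers, a list of 10 genes led by Alb, were abundant in every liver, with a summed level of 46197 to 73946 FPKM in the CS group and 51156 to 74630 FPKM in the PS group, and none was at 0.

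**Figure D1:**
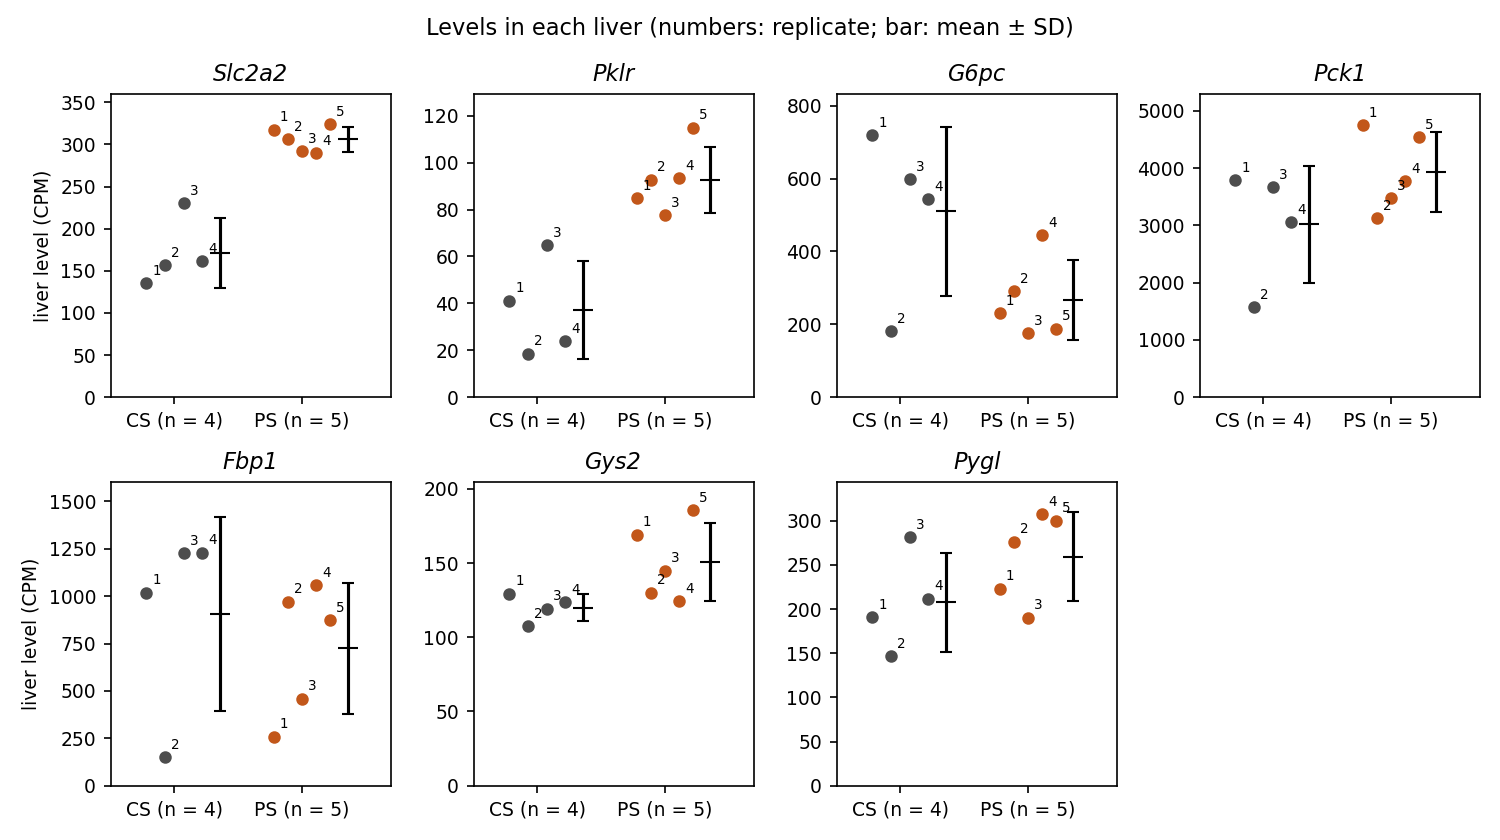
Levels in CPM (linear axes from 0) of the 7 genes in each liver of the CS and PS groups, with replicate numbers beside the points and the mean ± SD as bars. Slc2a2 and Pklr did not overlap between the diets, and CS replicate 2 was the low point of Pck1, Fbp1, Gys2, Pygl and Pklr.

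Slc2a2 (ENSMUSG00000027690, chromosome 3 from 28697903 to 28731359, plus strand, GRCm38) encodes GLUT2, the transporter that carries glucose in both directions across the hepatocyte membrane. Its levels in the CS livers, in order of replicate, were 135, 156, 230.2 and 162 CPM. In the PS livers they were 318, 306, 292, 289.8 and 324 CPM. Every PS liver lay above every CS liver, and the PS livers differed little among themselves. The means were 171 ± 41.2 (SD, n = 4) and 306 ± 15.2 CPM (SD, n = 5), which gave 0.84 on the log2 scale (standard error 0.19, unadjusted p = 0.000818 and adjusted p = 0.177 from edgeR). In each of the 9 fits that left out a liver the unadjusted p stayed at or below 0.05, with log2 fold changes of 0.74 to 1.02, and 0.80 without CS replicate 2. DESeq2's Wald test, run as an alternative, gave 0.83 with an adjusted p of 0.00151, past the threshold that edgeR's test did not reach. Of all genes tested, 2.1% lay higher without overlap and 1.53% lower.

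Pklr (ENSMUSG00000041237, chromosome 3 from 89136142 to 89146784, plus strand) encodes the pyruvate kinase of liver and red cells, which makes pyruvate and ATP in the last step of glycolysis. The CS livers held 41.2, 18.6, 64.8 and 23.9 CPM. The PS livers held 84.8, 92.8, 77.5, 93.3 and 115 CPM. Again no PS liver overlapped with a CS liver, and here the CS livers were the more scattered, with a 3.48-fold range. The means were 37.1 ± 20.8 (SD, n = 4) and 92.7 ± 14.0 CPM (SD, n = 5), or 1.32 on the log2 scale (standard error 0.33, edgeR unadjusted p = 0.00188, adjusted p = 0.243). Leaving out each liver gave 1.10 (without CS replicate 2) to 1.73, all at an unadjusted p at most 0.05. The adjusted p in DESeq2's Wald test was 0.0143. Exons of Pklr share 711 bases with those of Hcn3, an ion channel gene on the other strand, and the library kit does not mark strand, so reads there cannot be assigned. Hcn3 held 31 to 63 counts in the CS livers and 81 to 226 in the PS livers, while Pklr held 276 to 1116 and 1097 to 1734.

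The promoters of both genes are shown because these genes were the pair that rose without overlap. The sequences are RefSeq's (GRCm38.p6), upstream of a transcription start and cut where an annotated exon begins, and capitals mark matches to the motifs searched. Pklr has an upstream start and a start further downstream, used here because the stretch before it holds the carbohydrate response element match.
Pklr, chr3:89136373-89136571, plus strand: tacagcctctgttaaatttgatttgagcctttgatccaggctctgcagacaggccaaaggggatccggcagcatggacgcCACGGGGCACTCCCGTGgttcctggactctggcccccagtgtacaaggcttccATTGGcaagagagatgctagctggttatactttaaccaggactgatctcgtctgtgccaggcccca
Slc2a2, chr3:28697653-28697902, plus strand: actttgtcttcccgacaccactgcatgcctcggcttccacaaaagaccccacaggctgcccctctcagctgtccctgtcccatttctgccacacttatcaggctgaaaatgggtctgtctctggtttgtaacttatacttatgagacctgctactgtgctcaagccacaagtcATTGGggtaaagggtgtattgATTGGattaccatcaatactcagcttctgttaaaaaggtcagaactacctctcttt
The long capital run in Pklr, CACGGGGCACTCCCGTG, matches the E-box-like parts CANGNG and CNCNTG with 5 bases between them, which is known as the binding site of the glucose-responsive factor ChREBP. It starts 170 bases before the downstream start site. Of 32851 mouse promoters of the same length, 0.557% held this pattern, as did 1 of the 7 searched here. The stretch before the upstream Pklr start held no match, and the downstream start was picked for having it. The share thus does not measure how unusual the find is. The other capitals are ATTGG, the CCAAT box read on the other strand, which lay 117 bases before the Pklr start and 77 and 56 bases before the Slc2a2 start and occurred in 37.4% of promoters. Both strands were searched in 7 promoters of 6 of the genes, and Gys2 was not searched. The E-box CACGTG (7.15% of all promoters) and the glucocorticoid receptor motif AGAACA (19.0%) were in 0 of the 7, TATAAA (13.6%) was in 2 and CAAAACA (6.28%), known from the insulin response of G6pc, was in 1, that of G6pc. A match is a description of the letters, not a measured binding site.

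Glucose 6-phosphatase carries out the final step of glucose release. G6pc (ENSMUSG00000078650, chromosome 11 from 101367561 to 101377903, plus strand) encodes its catalytic subunit. The CS livers held 719, 181, 599 and 544 CPM. In the PS livers the levels were 230.1, 290.3, 175, 445 and 188 CPM. CS replicates 1, 3 and 4 lay above every PS liver, and CS replicate 2 lay among the lowest PS livers. The means were 511 ± 232 (SD, n = 4) and 266 ± 110 CPM (SD, n = 5), or -0.94 on the log2 scale (standard error 0.38, edgeR unadjusted p = 0.031, adjusted p = 0.592). Without CS replicate 2 it was -1.23 (edgeR unadjusted p = 0.000937, adjusted p = 0.0765). The unadjusted threshold was passed in 3 of the 9 fits that left out a liver, and the largest p was 0.0989, without CS replicate 1. The call was also lost with limma-trend on log2(FPKM + 1), with -0.86 and an unadjusted p of 0.0665, and with the replicate number as a block, with -0.77 and an unadjusted p of 0.145.

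Pck1 (ENSMUSG00000027513, chromosome 2 from 173153048 to 173159273, plus strand) encodes the cytosolic PEPCK, which commits oxaloacetate to gluconeogenesis. It was the most abundant of the 7 mRNAs, with a mean of 1045 FPKM over the 9 livers. The CS livers held 3783, 1566, 3671 and 3049 CPM and the PS livers 4749.8, 3123, 3472, 3765 and 4536 CPM. The groups overlapped, and CS replicate 2 was the lowest of all. The log2 fold change was 0.38 (standard error 0.27, edgeR unadjusted p = 0.18), with an interval of 2 standard errors from -0.15 to 0.91, and it was 0.16 without CS replicate 2. Its promoter is printed for the core of the cAMP response element that its regulation by glucagon is known for.
Pck1, chr2:173152823-173153047, plus strand: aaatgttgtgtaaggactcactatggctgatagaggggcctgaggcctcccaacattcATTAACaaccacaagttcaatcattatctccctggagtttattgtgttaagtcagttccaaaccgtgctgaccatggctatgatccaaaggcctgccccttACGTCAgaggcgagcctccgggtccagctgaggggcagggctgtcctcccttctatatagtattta
The capitals ACGTCA mark this core, 91 bases before the start, present in 7.51% of promoters. The capitals ATTAAC mark GTTAAT on the other strand, part of a site of the hepatocyte factor HNF1, 192 bases before the start and present in 7.1% of promoters.

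Fbp1 (ENSMUSG00000069805, chromosome 13 from 62864753 to 62888282, minus strand) encodes the fructose 1,6-bisphosphatase of liver, which removes a phosphate on the way to glucose. The CS livers held 1018, 149.7, 1228 and 1229 CPM, and the PS livers held 259, 970.5, 459, 1058 and 873 CPM. CS replicate 2 and PS replicates 1 and 3 were low, and the other 6 lay close together, whichever their diet. It had the widest range of the 7 within a diet, 8.21-fold in the CS group and 4.09-fold in the PS group. The log2 fold change of -0.32 (standard error 0.55, edgeR unadjusted p = 0.565) had an interval of 2 standard errors from -1.42 to 0.77. Without CS replicate 2 the value was -0.68 (edgeR unadjusted p = 0.0942).

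Gys2 and Pygl act on glycogen in opposite directions. Gys2 (ENSMUSG00000030244, chromosome 6 from 142422613 to 142473109, minus strand) encodes the glycogen synthase of liver. It stood at 129, 107, 119 and 124 CPM in the CS livers and at 169, 130.0, 145, 124 and 186 CPM in the PS livers. All PS livers but 1 lay above the CS livers and PS replicate 4 lay within their range. The log2 fold change was 0.33 (standard error 0.17, edgeR unadjusted p = 0.0841, interval of 2 standard errors from -0.02 to 0.68), and 0.28 without CS replicate 2 (edgeR unadjusted p = 0.148).

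Pygl (ENSMUSG00000021069, chromosome 12 from 70190811 to 70231488, minus strand) encodes the glycogen phosphorylase of liver, which cleaves glucose units from glycogen. The CS livers held 190.5, 147, 281 and 212 CPM and the PS livers 223, 276, 190.4, 307 and 300.4 CPM. The groups overlapped over most of their range. The log2 fold change was 0.32 (standard error 0.23, edgeR unadjusted p = 0.182, interval of 2 standard errors from -0.13 to 0.78), and 0.19 without CS replicate 2.

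**Figure D2:**
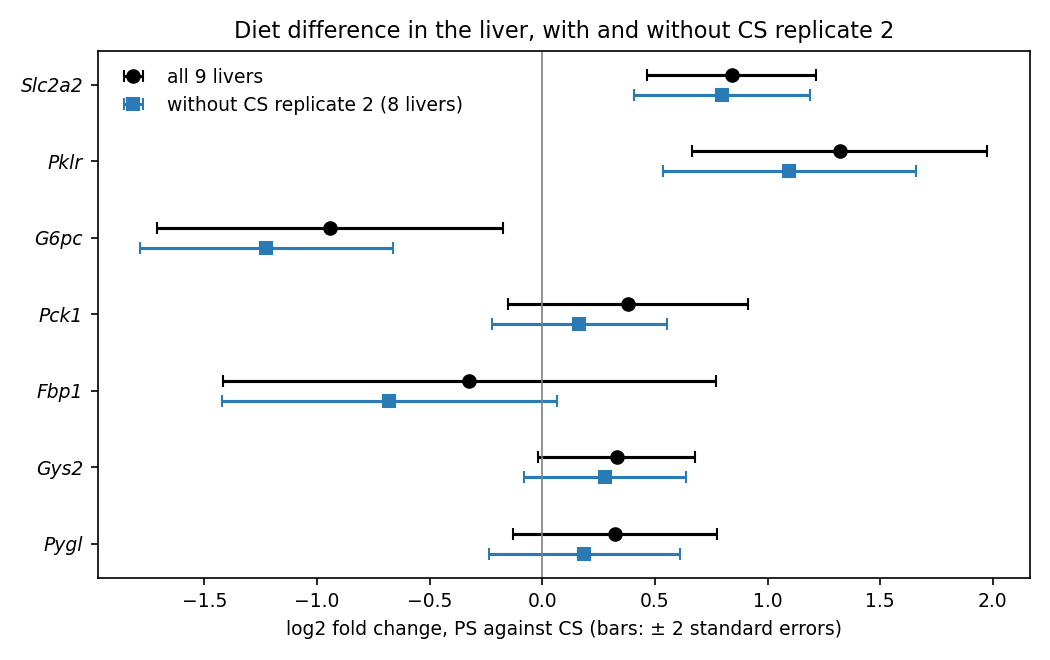
Log2 fold change of the PS against the CS group in the liver (horizontal axis) for the 7 genes, with all 9 livers (circles) and without CS replicate 2 (squares); bars are ± 2 standard errors. Slc2a2, Pklr and G6pc kept their side of 0 in both fits, with intervals that did not reach 0.

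Of the 7 genes, 2 were higher and 1 was lower at the unadjusted threshold with all livers, where 7.55% of all genes passed. The counts were likewise 2 and 1 without CS replicate 2 (14.1% of all genes), PS replicate 2 (7.1%) or PS replicate 4 (7.22%), and 2 and 0 in each of the other 6 fits that left out a liver, where 5.2% to 8.3% of all genes passed. The median log2 fold change of the 7 was 0.33, beside -0.03 over all genes tested, and 0.19 without CS replicate 2.

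Within a diet the genes varied together to different degrees. After each diet mean was subtracted, the Pearson correlation of log2 CPM over the 9 livers was above 0.5 in 13 of the 21 pairs, with a median of 0.58 and a range of -0.10 to 0.82. These are descriptions over livers that share the same scaling and of which CS replicate 2 lay far from the rest. Fbp1 and G6pc had the highest value, 0.82, followed by Fbp1 and Pygl with 0.81, and Gys2 with G6pc the lowest.

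For 3 pairs the relation was tested over the 9 livers. G6pc and Pck1, both enzymes of glucose release, had r = 0.196 (exact permutation p = 0.701) and Spearman's rho = 0.15 (exact permutation p = 0.708). G6pc and Pklr, enzymes of opposed directions, had r = -0.20 (exact permutation p = 0.588) and rho = -0.183 (exact permutation p = 0.644). Gys2 and Pygl had r = 0.36 (exact permutation p = 0.34) and rho = 0.25 (exact permutation p = 0.521). No pair passed, and the adjusted p over the 3 pairs was 0.701 for each r and 0.708 for each rho in these exact permutation tests. Without the 2 livers farthest from the median of the first gene, r was 0.11 (p = 0.834), -0.16 (p = 0.776) and 0.209 (p = 0.678), again by exact permutation. The G6pc and Pck1 value turned to -0.37 without CS replicate 2. With each liver left out in turn, r ranged from -0.67 to -0.03 for G6pc with Pklr and from 0.05 to 0.49 for Gys2 with Pygl. These r values mix the shift between the diets with the relation within a diet. Once the diet means were subtracted, r was 0.66 for G6pc with Pck1, 0.58 for G6pc with Pklr and 0.05 for Gys2 with Pygl, given as descriptions with no test.

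The genes whose levels followed each of the 7 most closely were sought among 7652 others by the same diet-centred correlation over 9 livers. The values given were picked as the highest of that many, so they are high by selection. None was tested or computed again without a liver, and CS replicate 2 lay far from the rest. Slc2a2 was followed by Srebf1 (r = 0.966), a transcription factor of lipid synthesis that insulin is known to induce, by Aldh1l1 (0.957) and by Ass1 (0.942), an enzyme of the urea cycle. The nearest to Pklr were Prrc1 (0.987), Lman1 (0.978) and Jup (0.973), and to G6pc they were Eloa (0.983), Spty2d1 (0.978) and Dgkd (0.978). Pck1 lay nearest to Tpst2 (0.968), Fbxo21 (0.967) and Repin1 (0.962). The 3 nearest to Fbp1 were Ube2z (0.997), Eef2 (0.996) and Gbe1 (0.996), the last of which is the glycogen branching enzyme. For Pygl they were Sardh (0.970), Slc39a11 (0.969) and Mug1 (0.966). Gys2 had the loosest neighbours, Serpinh1 (0.886), Fam192a (0.875) and Stx7 (0.856).

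The 6 lists of glucose pathway genes around these 7 held 85 genes, of which 81 were tested. At the unadjusted threshold 9 were higher and 4 lower, 16% of those tested beside 7.55% of all genes, and 0 passed the adjustment in edgeR's test. DESeq2's Wald test put 3 of them, Ugp2, Pfkfb3 and Galm, at an adjusted p under 0.05. Without CS replicate 2, 14 of 82 were higher and 7 lower, 25.6% beside 14.1% of all genes. The count fell to 5 and 2 without CS replicate 1 (8.64% beside 5.2%) or PS replicate 5 (8.64% beside 6.16%) and to 5 and 1 without PS replicate 3 (7.41% beside 5.42%). The median log2 fold change of these 81 genes was 0.10. These lists and those below were chosen with earlier results of these data known. A share above that of all genes is therefore a description and not a test of a list. Many single calls depended on 1 liver, so the number of the 9 fits without a liver in which a call held is given beside the genes whose call was lost in any of them.

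Among the glycogen genes 3 were higher and 2 lower of 19 tested, beside 7.55% of all genes, with a median of 0.17. Ugp2, which makes the UDP-glucose that glycogen synthase uses, had levels of 160, 124, 211 and 231 CPM in the CS livers and 281, 277, 321, 333 and 419 CPM in the PS livers, without overlap (log2 fold change 0.85, standard error 0.22, edgeR unadjusted p = 0.0028). Ppp1r3b, the subunit that directs a phosphatase to glycogen in the liver, had 52.7, 178, 192 and 105 CPM against 279.8, 245, 230.4, 337 and 263 CPM, also without overlap (log2 fold change 1.04). Of its relatives, Ppp1r3g fell by 1.79 on the log2 scale, and these 3 calls held in all 9 fits. Ppp1r3c fell by 0.65, held in 2 of 9 (largest edgeR unadjusted p = 0.134, without CS replicate 3). Phkg2, a subunit of the kinase that activates phosphorylase, rose by 0.50, held in 3 of 9 (largest edgeR unadjusted p = 0.123, without CS replicate 4). Over these fits 2 or 3 glycogen genes passed upward and 1 or 2 downward. Pgm2, which was among the 2 most abundant of the list, had a log2 fold change of 0.07.

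Among 19 genes that supply gluconeogenesis, 2 were higher and 1 lower, with 7.55% of all genes past that threshold and a median of 0.03. Slc37a4, which carries glucose 6-phosphate to the phosphatase that G6pc encodes, had 79.6, 116, 183 and 155 CPM in the CS livers and 186, 200, 203, 197 and 267 CPM in the PS livers, without overlap (log2 fold change 0.66, standard error 0.24, edgeR unadjusted p = 0.019). Mpc1, a part of the mitochondrial pyruvate carrier, rose by 0.59 on the log2 scale. Both calls held in 7 of 9 fits and had their largest edgeR unadjusted p without CS replicate 1 (0.0527 and 0.0517). Got1, the cytosolic aspartate transaminase, fell by 0.87, held in 2 of 9 (largest edgeR unadjusted p = 0.133, without CS replicate 3). Without CS replicate 1, 0 of the 19 passed in edgeR's test, beside 5.2% of all genes. Without CS replicate 2, 3 were higher and 2 lower, beside 14.1%. Tat and Mdh1, the most abundant of the list, had log2 fold changes of 0.38 and 0.32 short of the threshold, and 0.17 and 0.02 without CS replicate 2.

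Of 13 glycolysis genes, 0 were higher and 1 was lower in edgeR's test at the unadjusted threshold, a share near the 7.55% of all genes, with a median of -0.14. The one lower was Pfkp (-0.88), a phosphofructokinase of low abundance in liver at a mean of 0.15 FPKM. Its call held in 5 of 9 fits and was lost without CS replicate 2 (-0.46, edgeR unadjusted p = 0.185). Ldha, a lactate dehydrogenase subunit, had a log2 fold change of -0.52 (standard error 0.39), and Tpi1, the triose phosphate isomerase, had one of -0.00 (standard error 0.32). Ldha passed in 1 of 9 fits, that without CS replicate 2 (-0.80, edgeR unadjusted p = 0.0245). Among 13 genes of fructose and galactose use and of the bifunctional enzymes, 3 were higher and 0 lower, beside the same 7.55%, with a median of 0.42. These were Pfkfb3 (2.04), an enzyme that makes the activator of phosphofructokinase, Galm (0.55), the galactose mutarotase, and Tkfc (0.66), the triokinase of fructose breakdown. Tkfc held in 3 of 9 fits (largest edgeR unadjusted p = 0.0963, without CS replicate 4), and the other calls in 9. Of the 13, 6 were higher and 1 lower without CS replicate 2, beside 14.1% of all genes. Sord and Khk, the most abundant, had 0.42 and 0.56 short of the threshold. Of 8 pentose phosphate genes 1 passed, also beside 7.55%, Taldo1 (0.48), the transaldolase, held in 3 of 9 fits (largest edgeR unadjusted p = 0.101, without PS replicate 1), while H6pd, the most abundant, had -0.33. Without CS replicate 2, 3 of the 8 were higher and 1 lower, H6pd (-0.50), beside 14.1% of all genes.

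**Figure D3:**
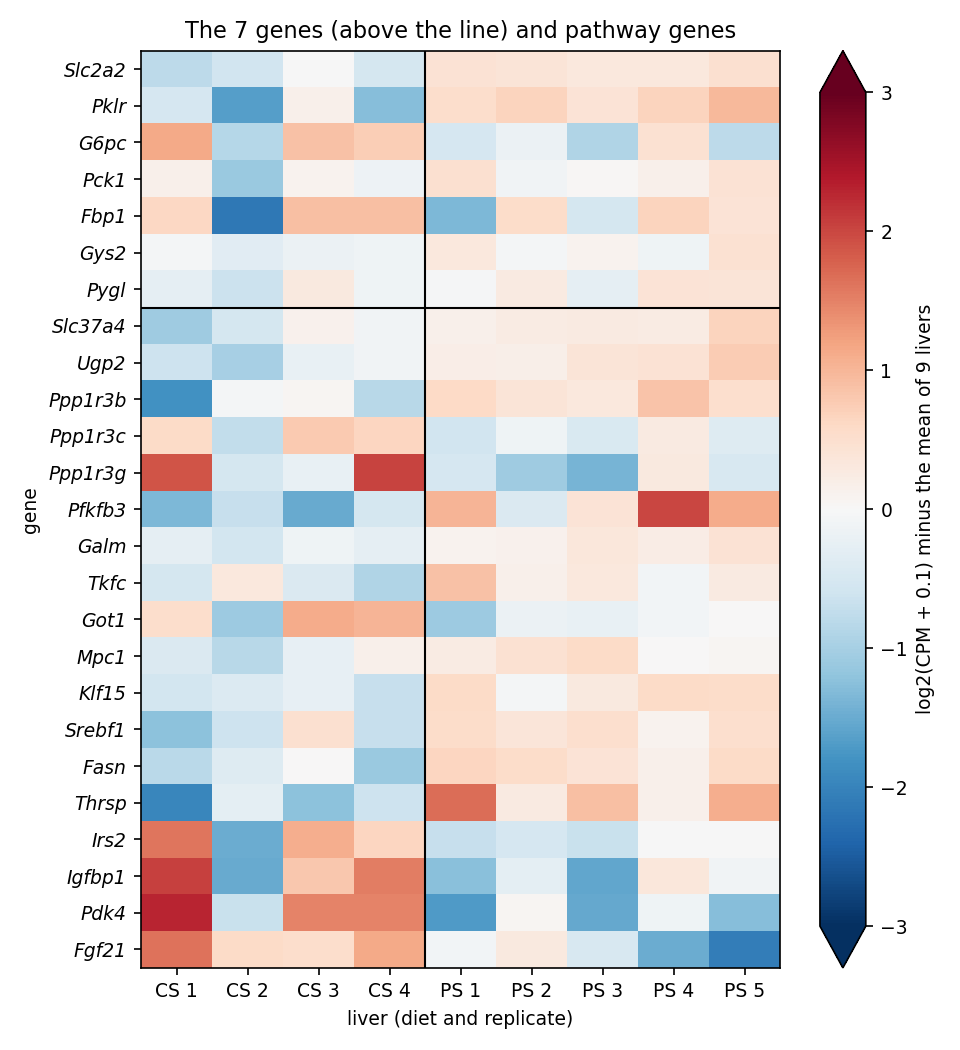
Deviation of log2(CPM + 0.1) from the mean of the 9 livers for the 7 genes (above the line) and 18 pathway genes, 1 column per liver, on a colour scale limited at ± 3. Slc2a2, Pklr, Ugp2 and Thrsp were lower in the 4 CS columns than in the 5 PS columns, and CS replicate 2 differed from the other CS livers in G6pc, Fbp1, Got1, Irs2 and Igfbp1.

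Of 22 regulators of these genes, 4 were higher and 3 lower, with a median of 0.13, beside 7.55% of all genes past the same unadjusted threshold. None passed the adjustment in edgeR's test, and of the 7 called DESeq2's Wald test put Klf15 at an adjusted p under 0.05 (0.00165). Klf15, a factor that promotes gluconeogenesis from amino acids, rose by 0.87 without overlap (edgeR unadjusted p = 0.000723), Nr0b2, a corepressor that bile acids induce, by 1.22, Ppargc1a, a coactivator of fasting genes, by 0.79, and Srebf1 by 0.79. Irs2, which relays the insulin signal, fell by 1.18, Sik1, a kinase that restrains the cAMP response, by 0.91, and Creb3l3, a factor made in liver, by 0.44. Klf15, Nr0b2 and Ppargc1a held in all 9 fits without a liver, Srebf1 and Irs2 in 7 (largest edgeR unadjusted p = 0.0653 without CS replicate 4 and 0.101 without CS replicate 1), and Sik1 and Creb3l3 in 3 (0.147 without CS replicate 1 and 0.079 without PS replicate 5). Without CS replicate 2 the counts were 7 higher and 3 lower, beside 14.1% of all genes, and without CS replicate 1 they were 3 and 0, beside 5.2%. Cebpa and Cebpb, the most abundant, had log2 fold changes of 0.14 and 0.70 short of the threshold. Cebpb passed in 2 of 9 fits without a liver, with 1.03 without CS replicate 2 (edgeR unadjusted p = 0.00776).

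Among 13 tested genes known as targets of ChREBP, 3 were higher and 1 lower, beside 7.55% of all genes, with a median of 0.33. These became 2 and 0 without CS replicate 1 or 3 or PS replicate 1, 3 or 5, and 4 and 2 without CS replicate 2, where 14.1% of all genes passed. Thrsp (1.82) and Fasn (0.99), both of lipid synthesis, rose without overlap, Tkfc rose as given above, and Acacb, an acetyl-CoA carboxylase, fell by 0.70, held in 3 of 9 fits (largest edgeR unadjusted p = 0.165, without CS replicate 3). Khk (0.56) and Gpd1 (-0.33), the most abundant, did not pass. Of 13 genes known to respond to fasting, 2 were higher and 5 lower, again beside 7.55% of all genes, with a median of -0.41. Pdk4 fell by 2.20, Igfbp1 by 1.60, Fgf21 by 1.58, Cdkn1a by 1.21 and Cyp4a10 by 0.67, whereas Lpin1 rose by 2.69 and Ppargc1a rose as given above. Of these, the call of Igfbp1 was lost without CS replicate 1 (edgeR unadjusted p = 0.0741). Cyp4a14, a fatty acid hydroxylase close in sequence to Cyp4a10, had -0.89 short of the threshold (edgeR unadjusted p = 0.0541). It passed in 2 of 9 fits, with -1.135 without CS replicate 2 (edgeR unadjusted p = 0.0101). The fasting counts were 2 and 7 without CS replicate 2, beside 14.1% of all genes, and 2 and 4 without CS replicate 1, beside 5.2%. Tkfc, Ppargc1a and some other genes stand in 2 lists, so these counts are not independent.

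Genes of the circadian clock differed between the diets in the same livers. At the unadjusted threshold 10 of 16 were higher and 4 lower with all livers, where 7.55% of all genes passed, and also without CS replicate 2 (14.1% of all genes) or PS replicate 2 (7.1%). Those higher numbered 6 without CS replicate 1 (5.2%), CS replicate 4 (8.3%) or PS replicate 1 (6.19%), with 3, 4 and 4 lower. Ciart (3.92), Dbp (3.15), Nr1d1 (1.29), Hlf (0.85) and Nr1d2 (0.82) rose and Npas2 (-1.88) and Arntl (-1.57) fell without overlap, and their calls held in all 9 fits without a liver. The value of Ciart was 6.18 and that of Dbp 4.91 without CS replicate 2. Per2 (1.76) also rose in all 9 fits and was 2.76 without CS replicate 2. Per1, Per3, Tef and Bhlhe41 rose too, but the calls of Per1 and Per3 held in 3 of 9 fits and those of Tef and Bhlhe41 in 4. Their log2 fold changes without CS replicate 2 were 1.96 for Per1, 3.32 for Per3, 1.59 for Tef and 2.37 for Bhlhe41, against 1.11 for Per1, 1.72 for Per3 and 1.03 for Tef with all livers. Cry1 and Nfil3 fell, each in 8 of 9 fits. The summed level of the 16 was 76.0 to 97.7 FPKM in the CS livers and 106 to 170.1 FPKM in the PS livers, with none at 0. The part of the clock genes in the values of the 7 genes was not tested.

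Markers of other cells were counted at the same unadjusted threshold, which 7.55% of all genes passed. Kupffer cell markers had a negative log2 fold change in 7 of 7 genes, with 2 past the unadjusted threshold, Clec4f (-0.74) and Csf1r (-0.65, held in 2 of 9 fits without a liver), and a summed level of 86.4 to 116 FPKM in the CS group and 25.4 to 97.0 FPKM in the PS group. Stellate cell markers were negative in 6 of 6 (1 past the threshold, Reln, -0.55), and their sums were 26.6 to 51.0 and 24.5 to 39.3 FPKM. Sinusoidal endothelial markers were negative in 5 of 6 (0 past the threshold in edgeR's test), with sums of 23.9 to 26.8 and 10.4 to 32.1 FPKM. The Kupffer and sinusoidal counts depended on PS replicate 5. Without it 6 of 7 Kupffer and 4 of 6 sinusoidal markers passed as lower, with medians of -1.05 and -0.86, beside 6.16% of all genes, and the stellate count was 1 as before. Adipocyte markers, of which 3 of 6 were tested and 1, Cidec, was lower (-1.92), summed to 14.4 to 42.2 FPKM in the CS and 4.27 to 13.9 FPKM in the PS livers, with up to 3 of the 6 at 0. Hepatocyte markers had 6 positive and 4 negative values of 10, and 0 passed. Periportal markers, from the zone where gluconeogenesis is known to be strongest, had 1 lower of 12 (Hal, held in 4 of 9 fits), a share near the 7.55% of all genes, and a median of -0.03, and pericentral markers 2 lower of 12 (Axin2, held in 2 of 9 fits, and Tbx3) and a median of 0.05. Ass1, Cyp2e1 and Oat, the most abundant of these besides Pck1, did not pass. The part of these cell markers in the results was not tested.

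The lung, which does not release glucose, served as the background. Tables of the tissues were normalized separately by the authors, so levels across them are approximate. Mean levels in the livers were 1045 FPKM for Pck1, 482 for Fbp1, 158 for G6pc, 52.4 for Gys2, 43.4 for Slc2a2, 34.9 for Pygl and 21.3 for Pklr. In each of the 9 livers Pck1 was above Fbp1, Fbp1 above G6pc, G6pc above Gys2 and Pygl above Pklr. The others were not ordered alike in every liver. Gys2 was above Slc2a2 in 4 of 4 CS and 3 of 5 PS livers, and Slc2a2 was above Pygl in 1 of 4 CS and 5 of 5 PS livers. In the lungs the means were 4.86 FPKM for Pygl and 4.85 for Pck1, and from 0.03 to 0.53 for the other 5.

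Other members of the same families had the opposite pattern in most cases. Pkm, the pyruvate kinase of most tissues, averaged 59.5 FPKM in lung and 2.07 in liver, and Pygb, the brain-type phosphorylase, 13.1 and 0.47. Gys1, the glycogen synthase outside the liver, averaged 4.52 and 0.44, Pygm 6.42 and 0.18, G6pc3, the broadly expressed phosphatase subunit, 12.6 and 3.78, and Pck2, the mitochondrial PEPCK, 7.13 and 0.78. Hk1, Hk2 and Hk3 are hexokinases, a family of none of the 7 genes, and are only counted here with the relatives. They averaged 6.65, 2.57 and 1.25 in lung and 0.23, 0.11 and 0.62 in liver. Among the transporters, Slc2a1 averaged 8.68 in lung and 3.79 in liver, Slc2a3 2.13 and 0.06, Slc2a4 1.59 and 0.14, and Slc2a8 5.27 and 4.34, whereas Slc2a9 (1.48 and 5.02) and Slc2a5 (0.03 and 2.04) were higher in liver. Fbp2 averaged 0.53 and 0.17, and G6pc2 0.01 in lung and was listed at 0 in every liver. Of the 13 of these 17 genes tested in the liver, 0 passed the unadjusted threshold of edgeR between the diets, with all livers and without CS replicate 2, and at most 1 in a direction did without another liver.

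**Figure D4:**
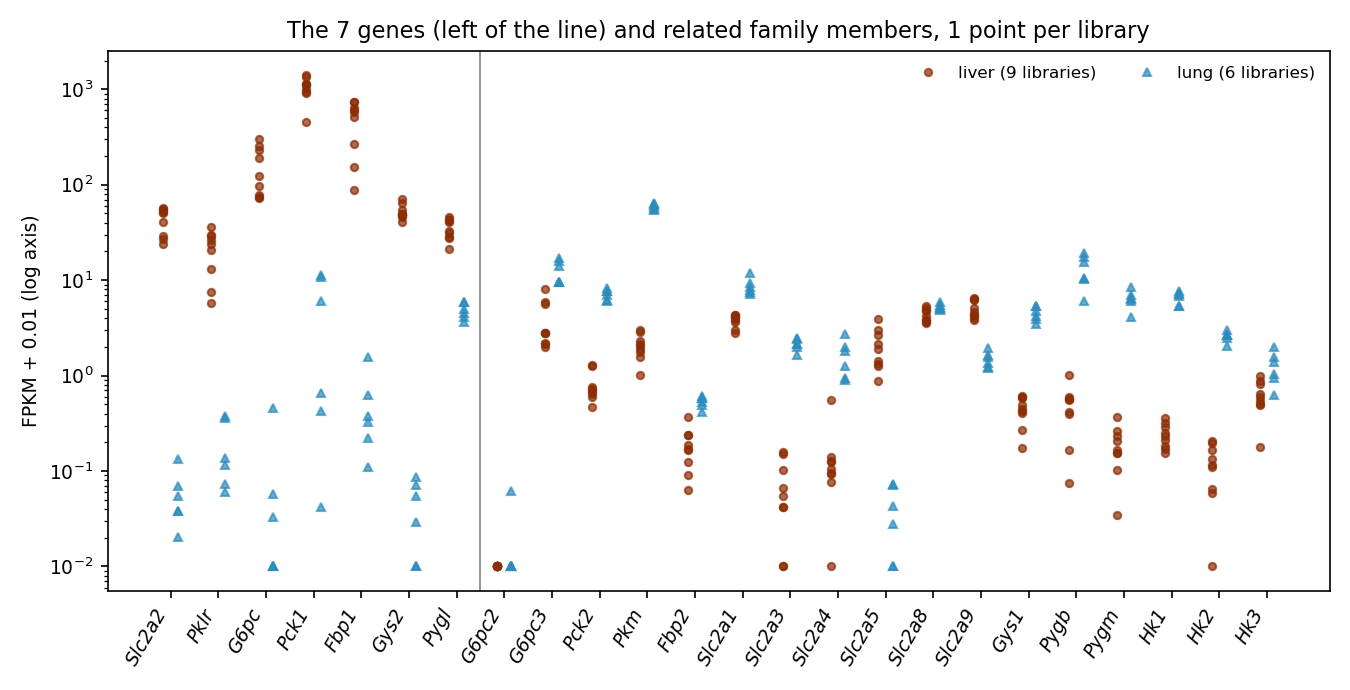
FPKM + 0.01 on a log axis for the 7 genes (left of the line) and 17 related genes in 9 livers (circles) and 6 lungs (triangles), 1 point per library. The 7 genes were higher in every liver than in every lung, while Pkm, Pygb, Gys1 and Hk1 showed the reverse.

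In the lung only Pygl, Pck1 and Fbp1 passed the filter on low counts. Pygl had 40.8, 34.5 and 41.1 CPM in the CS lungs and 28.0, 24.8 and 31.2 CPM in the PS lungs. The PS lungs all lay below the CS lungs, as 18.8% of all genes tested in the lung did. The sign was opposite to that in the liver, where Pygl was short of the threshold (0.32, edgeR unadjusted p = 0.182). In the lung its log2 fold change was -0.47 (standard error 0.15, edgeR unadjusted p = 0.0139, adjusted p = 0.0822), in a tissue where 30.1% of all genes passed the unadjusted threshold (15.6% higher and 14.5% lower) and 9.22% the adjusted one (4.8% higher and 4.43% lower). The unadjusted call was lost without CS replicate 3 (-0.39, edgeR unadjusted p = 0.0703). The difference of the diet effect, lung minus liver, was -0.84 for Pygl (standard error 0.33, edgeR unadjusted p = 0.0218, adjusted p = 0.40). Over all genes 10.9% passed the unadjusted threshold for this difference (5.54% higher and 5.4% lower). With the mouse as a block, the true pairing of the tissues, Pygl did not pass (-0.66, edgeR unadjusted p = 0.098), nor did it without PS replicate 2 in the lung (-0.76, edgeR unadjusted p = 0.0549). Slc2a2, Pklr, G6pc and Gys2, which did not pass the filter in the lung, allow no such comparison. No gene of the 7 passed after adjustment, which 0.0226% of all genes did, 0.00565% higher and 0.017% lower (1810008I18Rik, Insig1, Msmo1 and Adck5).

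Lung Pck1 was spread over orders of magnitude, with 757, 717 and 41 counts in the CS lungs and 343, 25 and 2 in the PS lungs. The 3 lungs with most Pck1 were also the 3 with the highest sum of 6 adipocyte markers. These sums were 121, 152 and 28.1 FPKM in the CS lungs and 135, 11.1 and 5.69 FPKM in the PS lungs, with up to 3 of the 6 markers at 0 counts. The log2 fold change of Pck1 was -1.83 (standard error 1.74, edgeR unadjusted p = 0.342). It ranged from -5.10 without PS replicate 1 (edgeR unadjusted p = 0.0134, adjusted p = 0.0632) to -1.25 without PS replicate 3, so its unadjusted call depended on PS replicate 1. The lung minus liver difference of Pck1 was -2.22 with all libraries (edgeR unadjusted p = 0.118), -5.51 without that lung (edgeR unadjusted p = 0.000385, adjusted p = 0.13) and -2.76 without lung CS replicate 3 (edgeR unadjusted p = 0.0411). These fits did not use the mouse as a block. The part of the adipocyte markers in these values was not tested.

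Lung CS replicate 1 held more reads of liver genes than the other lungs. Its 10 hepatocyte markers summed to 65.9 FPKM, against 2.83 and 2.56 in the other CS lungs and at most 12.6 in the PS lungs. G6pc had 21 counts there and 0 to 2 in the other 5 lungs, and a count of 0 allows up to 3 counts, or 0.152 to 0.178 CPM in these libraries. Fbp1 had 52 counts there against 12 and 10 in the CS lungs and 6, 3 and 19 in the PS lungs, and Slc2a2 14 against 1 to 6. Fbp1 had a log2 fold change of -1.26 in the lung (standard error 0.80, edgeR unadjusted p = 0.149). Without this library it was -0.18 (edgeR unadjusted p = 0.825), and without PS replicate 3 it was -2.26 (edgeR unadjusted p = 0.0401, adjusted p = 0.133). The difference of Fbp1 between the tissues changed from -0.97 to 0.14 without CS replicate 1. Pklr had 8, 4 and 21 counts in the CS lungs and 20, 6 and 3 in the PS lungs, and Gys2 had 0 to 4 counts in each lung.

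Of the related genes in the lung, G6pc3 rose by 0.72 on the log2 scale and Pygb fell by 0.96 in the PS group, where edgeR's adjusted p was under 0.05 for both. Among the pathway genes, Galt (1.05), Phka2 (1.00) and Gapdh (1.75) also rose and Ppp1r3c (-1.01), Pgam1 (-0.90), Gpd1 (-0.90), Got2 (-0.75), Irs1 (-2.47) and Acly (-1.06) fell at that threshold. Gapdh was counted at 1.61 and 5.42 CPM on average in the CS and PS lungs, a low level for this gene. In the lung clock list Ciart, Nr1d1, Nr1d2 and Per1 rose and Cry1 and Nfil3 fell, as they did in the liver, and Sult5a1 of the periportal list rose by 2.35. Adgre1, a macrophage marker (-0.81), and Alas2, an erythroid marker (-1.24), fell. In the test of the lung minus liver difference none of these 20 genes passed an adjusted p of 0.05 in edgeR, and Got2, Phka2, Galt, Irs1, Acly and Sult5a1 passed the unadjusted threshold, which 10.9% of all genes did. This test did not use the mouse as a block. The adjusted lung calls depended on single lungs, since over all genes 0 were higher and 0 lower without CS replicate 3 in edgeR's test, 1 and 22 without CS replicate 1, 1 and 25 without CS replicate 2, and 2 and 7 without PS replicate 2, against 802 and 740 with all lungs. Leaving out other lungs raised the counts, to at most 1752 higher and at most 1309 lower.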

How the data were processed

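RNA of 9 livers and 6 lungs was sequenced as poly(A) libraries. Per the labels, reads were aligned with HISAT2 2.0.5 to mm10 and counted with featureCounts 1.5.0-p3. The authors deposited raw counts per gene and FPKM, which they normalised for gene length and for each library, separately in the 2 tissues. Strand use in counting is not given in the sources used here. All columns were mapped to samples (0 left out), and groups came from the sample titles.

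From the counts, edgeR 4.0.16 (TMM, filterByExpr, robust quasi-likelihood test, R 4.3.3) compared the diets in each tissue. Their difference was tested by 1 model over all 15 libraries, without the mouse as a block except in an alternative. Benjamini-Hochberg adjustment covered all genes tested. Standard errors are the log2 fold change divided by the square root of the F statistic. Alternatives were DESeq2 1.42.0, its size factors, omitting the filter, requiring 10 counts per library throughout, limma 3.58.1 on log2(FPKM + 1) and log2(FPKM + 0.1), blocks, and leaving out each library. The fits were tested on simulated data. The 7 genes and all lists were chosen with earlier results of these data known. Named are the 7, their relatives, listed genes with a liver unadjusted p at most 0.05 or a lung or difference adjusted p under 0.05, the 2 most abundant of each pathway, regulator, clock and zonation list, and 3 neighbours per gene by diet-centred correlation (mean log2 CPM at least 3). Coordinates match GENCODE M21 on GRCm38. Counting intervals cover counting error only, and p-values measure the spread between mice. The mouse is a true pairing between the tissues. Some genes are not reported here and were left out of the lists and their counts.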

Additional observations from a re-analysis of the deposited data

Results flagged for a closer look

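Dixon's rule was applied to 20 genes, the 7 and their relatives that were tested in the liver, in the CS and PS livers, 40 groups in all. Chance marks about 1 in 20 groups, and 2 values were marked. G6pc3 was highest in CS replicate 2, at 17.8 CPM. Pck2 was highest in PS replicate 1, at 9.89 CPM. None of the 7 genes themselves was marked. No listed gene passed an adjusted p of 0.05 in edgeR's test of the difference in diet effect between the tissues.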

How the results depend on the processing

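Slc2a2 and Pklr kept their direction and an unadjusted p at most 0.05 under each alternative, and Pck1, Fbp1, Gys2 and Pygl kept their direction and stayed short of it. G6pc kept its direction but had an unadjusted p above 0.05 with limma-trend on log2(FPKM + 1) (-0.86) or log2(FPKM + 0.1) (-0.86), with the replicate block (-0.77) and in 6 fits that left out a liver, whose range over all 9 was -1.23 to -0.74; the cause was not tested. No source used here says that a replicate number marks a shared litter or day, and same-numbered livers correlated at -0.36, -0.29, -0.34 and -0.03 and lungs at 0.05, -0.01 and 0.10. The replicate block moved the liver counts at the unadjusted threshold from 523 and 473 to 258 and 226, and the adjusted higher count to 0. Without a filter these were 828 and 785, and at an adjusted p under 0.05, 20 and 6. At that threshold the liver had 1 and 0 genes, DESeq2's Wald test 110 and 53, limma 9 and 1 with log2(FPKM + 1) and 2 higher with log2(FPKM + 0.1), and the stricter filter 2 higher. Leaving out a liver gave 0 to 43 higher and 0 to 22 lower, and 370 to 1039 and 329 to 852 at the unadjusted threshold, most without CS replicate 2. In the lung 802 and 740 became 1611 and 1479 with DESeq2's Wald test, 1220 higher without a filter, 443 and 482 higher with limma, and 0 to 1752 and 0 to 1309 without a library, with 0 and 0 without CS replicate 3. For the difference, 1 and 3 became 91 and 137 with DESeq2's Wald test, 2 and 8 without a filter, 2 higher with the stricter filter, 0 and 0 with the mouse as a block, and 0 to 3 and 0 to 9 without a library. The r of G6pc with Pck1 ranged from -0.37 to 0.37 without a liver, and with diet means subtracted it was 0.66, that of G6pc with Pklr 0.58 and that of Gys2 with Pygl 0.05. The difference of Fbp1 was 0.14 without lung CS replicate 1 and -1.93 at its lowest without a library. The fitted values for G6pc, 3.45 without that lung and -2.30 at the lowest, give no comparison, since the other CS lungs held 0 counts of it. At this depth lung G6pc, Slc2a2, Pklr and Gys2 allow no comparison of the diets.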
